A study of Mus musculus with 6 samples.

Results

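The genes described here are 10 that build or cross-link elastic fibres: Eln, Fbn1, Fbn2, Mfap4, Fbln5, Efemp2, Ltbp4, Lox, Loxl1 and Loxl2. They were taken from a list of names, and all 10 were found among the 56941 gene IDs of the count table. All 10 also passed the filter on low counts. The study sequenced RNA from mouse lung cells bound by magnetic beads against CD31, a surface protein of endothelial cells, on postnatal day 7. The hyperoxia group breathed 75% oxygen from postnatal day 0 (3 libraries), and the room air group breathed 21% oxygen (3 libraries). All other labelled conditions were common to both groups, and the labels name no strain or sex. Whether the replicates came from separate animals is not stated in the labels, so the p-values reflect only how far these samples differ, which may be technical.

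Elastic fibres give alveolar walls their recoil, and in the newborn lung they are laid down at the tips of the septa that divide the air spaces. Tropoelastin, the soluble product of Eln, is placed on a scaffold of fibrillin microfibrils with the help of fibulins and latent TGF-beta binding protein 4. Lysyl oxidases then oxidise its lysines so that neighbouring chains cross-link into insoluble elastin. Myofibroblasts are the best known source of alveolar elastin, and endothelial and smooth muscle cells also make elastic fibre proteins.

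Total counts ran from 39379793 to 42343192 per library, and 17072 genes were tested. The hyperoxia 1 and hyperoxia 3 libraries held 2 and 0 counts of the Y-linked genes Ddx3y, Eif2s3y, Kdm5d and Uty. Hyperoxia 2 held 6263 such counts, against 5433 to 6361 in the room air libraries. The lack of Y-linked reads was thus partly confounded with oxygen, and in hyperoxia 1 and hyperoxia 3 their effects cannot be told apart. Endothelial identity genes were present in every library: the summed level of 11 of them was 15271, 11172 and 14423 CPM (counts brought to equal depth across libraries) in hyperoxia 1 to 3, against 18299, 17820 and 13245 CPM in room air 1 to 3. Transcripts of other cells were also present, and Sftpc, the surfactant protein C gene of alveolar type 2 cells, averaged 9660.4 ± 1126 CPM in hyperoxia and 10132 ± 2678 CPM in room air (SD, n = 3 each).

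In hyperoxia Lox rose 1.52-fold and Efemp2 fell 1.50-fold, while the other 8 genes did not pass the test. Thus 1 of 10 was called higher and 1 of 10 lower, at an adjusted p below 0.05 by edgeR's quasi-likelihood test with Benjamini-Hochberg adjustment over all genes tested. Over those 17072 genes, 11.2% were called, 6.77% higher and 4.41% lower. With 10 genes a single call is 10% of the set, so the 20% called is read as a description only. The median log2 fold change of the 10 was 0.08, beside -0.01 over all genes tested. In 4 of the 10 the hyperoxia and room air values did not overlap, beside 30.9% of all genes tested. These were Fbln5 and Lox, higher in hyperoxia, and Efemp2 and Loxl2, lower in hyperoxia. In such bulk samples, fewer cells of a type and less RNA per cell cannot be told apart.

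**Figure D1:**
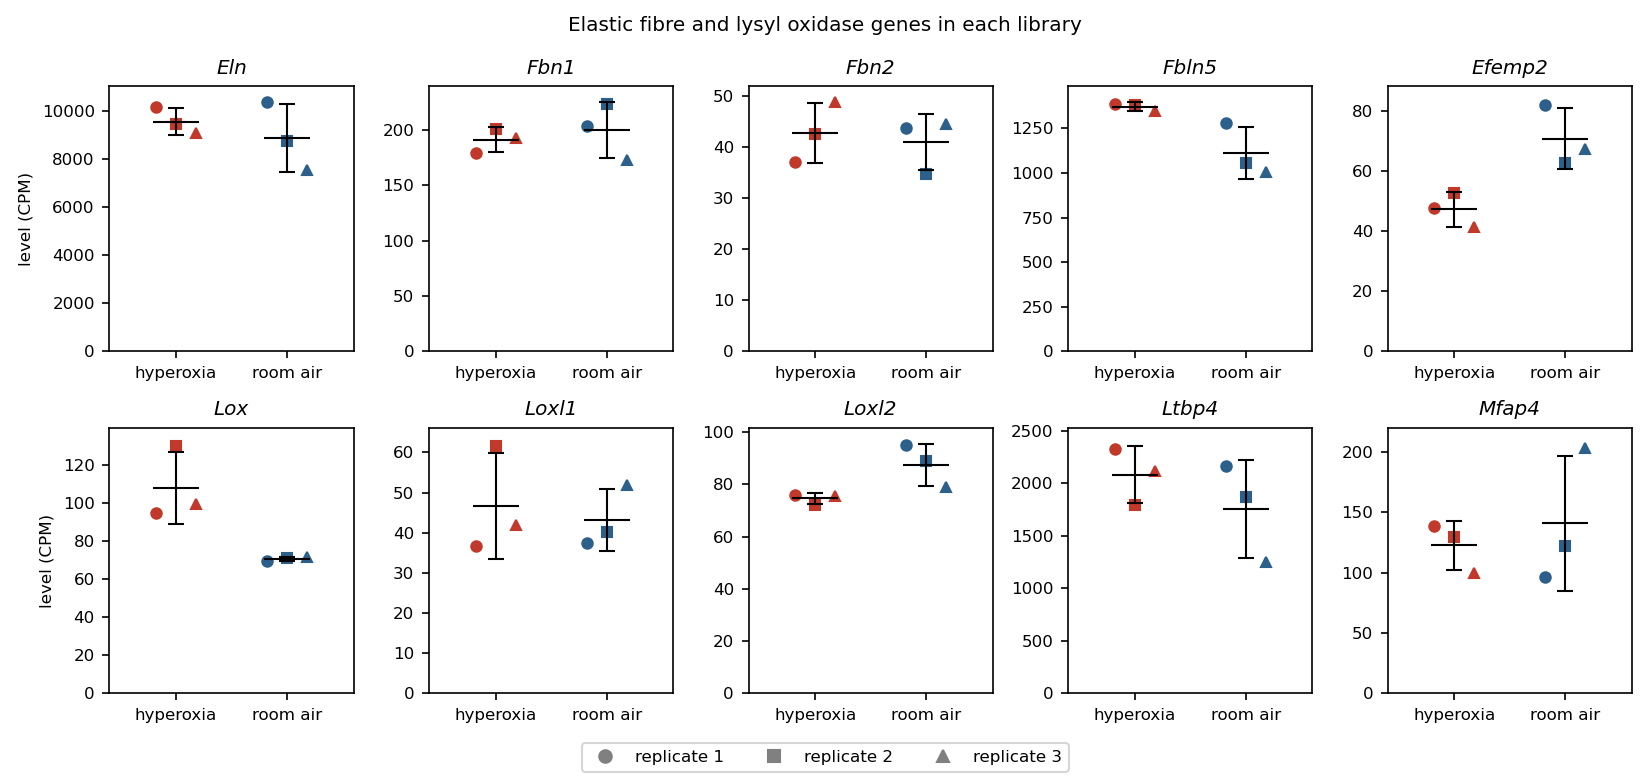
Level of each of the 10 genes (CPM, each panel on its own axis from 0) in the 3 hyperoxia libraries (left, red) and the 3 room air libraries (right, blue). Points are libraries, shaped by replicate number, and black bars are means with SD; all hyperoxia points lie above the room air points for Lox and Fbln5, and below them for Efemp2 and Loxl2.

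Eln, which encodes tropoelastin itself, was among the most abundant transcripts of these preparations. It took 0.991, 0.961 and 0.897% of all counts in hyperoxia 1 to 3, against 1.02, 0.872 and 0.785% in room air 1 to 3. By count it ranked 1, 3 and 2 among all genes in hyperoxia 1 to 3, against 1, 1 and 3 in room air 1 to 3. It therefore stood in the top 3 genes of every library. Within the 10 genes it made up 69.1 to 71.0% of the counts in hyperoxia and 71.1 to 72.0% in room air. Its level was 10173, 9455 and 9067 CPM in hyperoxia 1 to 3, against 10372, 8759.7 and 7558 CPM in room air 1 to 3. The hyperoxia values all lay within the range of the room air values. The log2 fold change was 0.10 (SE 0.18, 95% limits -0.29 to 0.50, adjusted p = 0.767).

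The microfibril genes Fbn1, Fbn2 and Mfap4 did not pass the test. Fbn1 encodes fibrillin-1, the main structural protein of microfibrils, and Fbn2 encodes fibrillin-2, best known from fetal microfibrils. Fbn1 had 179, 201 and 193 CPM in hyperoxia 1 to 3, against 204, 224 and 173 CPM in room air 1 to 3. Its log2 fold change was -0.07 (SE 0.12, 95% limits -0.34 to 0.20, adjusted p = 0.785). Of its exonic bases 20.1% overlap Gm9913 on the opposite strand, and since the strand setting of the counting is not given in the sources used here, its counts are uncertain. Fbn2 also overlapped between the groups, at 37.1, 42.5 and 48.8 CPM in hyperoxia 1 to 3, against 43.8, 34.8 and 44.5 CPM in room air 1 to 3 (log2 fold change 0.06, SE 0.14, 95% limits -0.25 to 0.37, adjusted p = 0.831). Mfap4, a microfibril-associated glycoprotein that binds elastin and fibrillin, varied most in room air. It had 139, 129 and 100.0 CPM in hyperoxia 1 to 3, against 96.7, 122 and 203 CPM in room air 1 to 3. Its log2 fold change of -0.20 (SE 0.23, 95% limits -0.72 to 0.32, adjusted p = 0.653) rested on room air 3, and without that library it was 0.16.

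Among the genes that guide tropoelastin onto microfibrils, 1 of 3 changed, and it fell. Efemp2 encodes fibulin-4, which binds tropoelastin and prolysyl oxidase and brings the enzyme to its substrate. It had 47.8, 52.8 and 41.4 CPM in hyperoxia 1 to 3, against 82.1, 62.8 and 67.5 CPM in room air 1 to 3. Every hyperoxia library lay below every room air library, and the means were 47.3 ± 5.73 CPM in hyperoxia and 70.8 ± 10.1 CPM in room air (SD, n = 3 each). The log2 fold change was -0.58 (SE 0.13, 95% limits -0.88 to -0.29), with an adjusted p of 0.0192 by edgeR's quasi-likelihood test. The call was lost on leaving out hyperoxia 1 (adjusted p = 0.0551), hyperoxia 3 (0.0813) or room air 1 (0.0583). It was also lost with a term for Y-linked reads (log2 fold change -0.42, adjusted p = 0.144), a fit in which the comparison rests on hyperoxia 2 against the room air libraries. Over all 15 alternatives the direction held, and the adjusted p ran from 0.000261 to 0.144.

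Fbln5 encodes fibulin-5, which tethers tropoelastin to cell-surface integrins and to microfibrils. It had 1387, 1383 and 1346 CPM in hyperoxia 1 to 3, against 1279, 1053 and 1007 CPM in room air 1 to 3. The values of the hyperoxia libraries lay close together and above all room air values, but the gene did not pass the test (log2 fold change 0.30, SE 0.14, 95% limits -0.01 to 0.61, adjusted p = 0.211). Ltbp4 encodes latent TGF-beta binding protein 4, a partner of fibulin-5 in elastin assembly. It had 2328, 1790.3 and 2115 CPM in hyperoxia 1 to 3, against 2159, 1868 and 1247 CPM in room air 1 to 3. The groups overlapped widely (log2 fold change 0.24, SE 0.20, 95% limits -0.21 to 0.69, adjusted p = 0.514). The fall of Efemp2 thus stood beside fibulin and Ltbp4 levels that did not pass the test in either direction.

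Promoter sequence was at hand for all 3 of these assembly genes, and it is shown because Efemp2 was called and Fbln5 and Ltbp4 were not, a difference in response that was itself not tested. The windows are the 250 bases before a RefSeq start on GRCm38.p6, the start nearest to a GENCODE transcript start being used where RefSeq lists several. Capitals mark matches of the GC box GGGCGG on either strand, the core bound by Sp-family factors, and overlapping matches were counted separately.
Efemp2 (chr19:5474440-5474689, plus strand): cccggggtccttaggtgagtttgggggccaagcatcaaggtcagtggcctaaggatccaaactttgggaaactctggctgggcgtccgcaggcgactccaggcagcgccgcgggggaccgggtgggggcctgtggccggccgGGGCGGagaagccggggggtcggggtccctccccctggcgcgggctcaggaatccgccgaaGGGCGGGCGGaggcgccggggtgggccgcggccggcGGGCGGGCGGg
Fbln5 (chr12:101818485-101818734, minus strand): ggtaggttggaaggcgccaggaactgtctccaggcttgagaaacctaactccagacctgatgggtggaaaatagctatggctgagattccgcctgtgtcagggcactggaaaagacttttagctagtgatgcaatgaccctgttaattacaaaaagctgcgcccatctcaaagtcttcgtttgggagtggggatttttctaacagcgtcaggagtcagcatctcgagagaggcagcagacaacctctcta
Ltbp4 (chr7:27333649-27333898, minus strand): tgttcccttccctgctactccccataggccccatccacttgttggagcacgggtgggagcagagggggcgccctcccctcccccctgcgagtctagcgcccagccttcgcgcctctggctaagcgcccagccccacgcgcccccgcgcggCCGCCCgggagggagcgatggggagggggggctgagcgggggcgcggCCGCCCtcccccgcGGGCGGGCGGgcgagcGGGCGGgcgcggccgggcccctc
The Efemp2 window held 5 GC boxes and was 75.6% G and C. The Ltbp4 window also held 5 and was 79.2% G and C, so Efemp2, which fell, and Ltbp4, which was not called, were alike in this respect. The Fbln5 window held 0 and was 49.6% G and C. Of 32851 windows of the same length, 32.7% held a GC box. The AP-1 motif TGANTCA, found in 6.75% of windows, matched none of the 3. The antioxidant response element core TGANNNNGC, found in 35.2% of windows, matched once in Efemp2 and not in Fbln5 or Ltbp4. The SMAD box CAGAC, found in 42.2%, matched 2 times in Fbln5 and not in Efemp2 or Ltbp4. A match is a run of letters and not a measured binding site. RefSeq entries were matched for 4 of the 10 genes, these and Fbn1.

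Among the 3 cross-linking enzymes of the set, Lox rose, and Loxl1 and Loxl2 did not pass the test. Lox encodes lysyl oxidase, the copper enzyme that starts cross-linking of elastin and of fibrillar collagen. It had 94.4, 129.5 and 99.2 CPM in hyperoxia 1 to 3, against 69.4, 71.2 and 71.3 CPM in room air 1 to 3. All hyperoxia libraries lay above all room air libraries, which were within 2 CPM of each other. The means were 108 ± 19.0 CPM in hyperoxia and 70.6 ± 1.06 CPM in room air (SD, n = 3 each). The log2 fold change was 0.61 (SE 0.13, 95% limits 0.33 to 0.89), with an adjusted p of 0.0121 by edgeR's quasi-likelihood test. The gene was called under all 15 alternatives. Its log2 fold change was lowest without hyperoxia 2, at 0.46, and highest with a term for Y-linked reads, at 0.87. The adjusted p ran from 8.19e-05 to 0.0467.

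Loxl1, the relative whose enzyme is tied to elastin through fibulin-5, had 36.7, 61.5 and 41.8 CPM in hyperoxia 1 to 3, against 37.3, 40.2 and 51.9 CPM in room air 1 to 3. The hyperoxia 2 value was the highest, and without that library the log2 fold change of 0.11 (SE 0.19, 95% limits -0.31 to 0.54, adjusted p = 0.763) was -0.13. Loxl2 encodes an enzyme known for cross-linking collagen IV of basement membranes. It had 76.1, 72.1 and 75.5 CPM in hyperoxia 1 to 3, against 94.8, 88.7 and 78.9 CPM in room air 1 to 3. All hyperoxia values were below all room air values, but the difference did not pass the adjusted test (log2 fold change -0.23, SE 0.10, unadjusted p = 0.0494, adjusted p = 0.197).

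**Figure D2:**
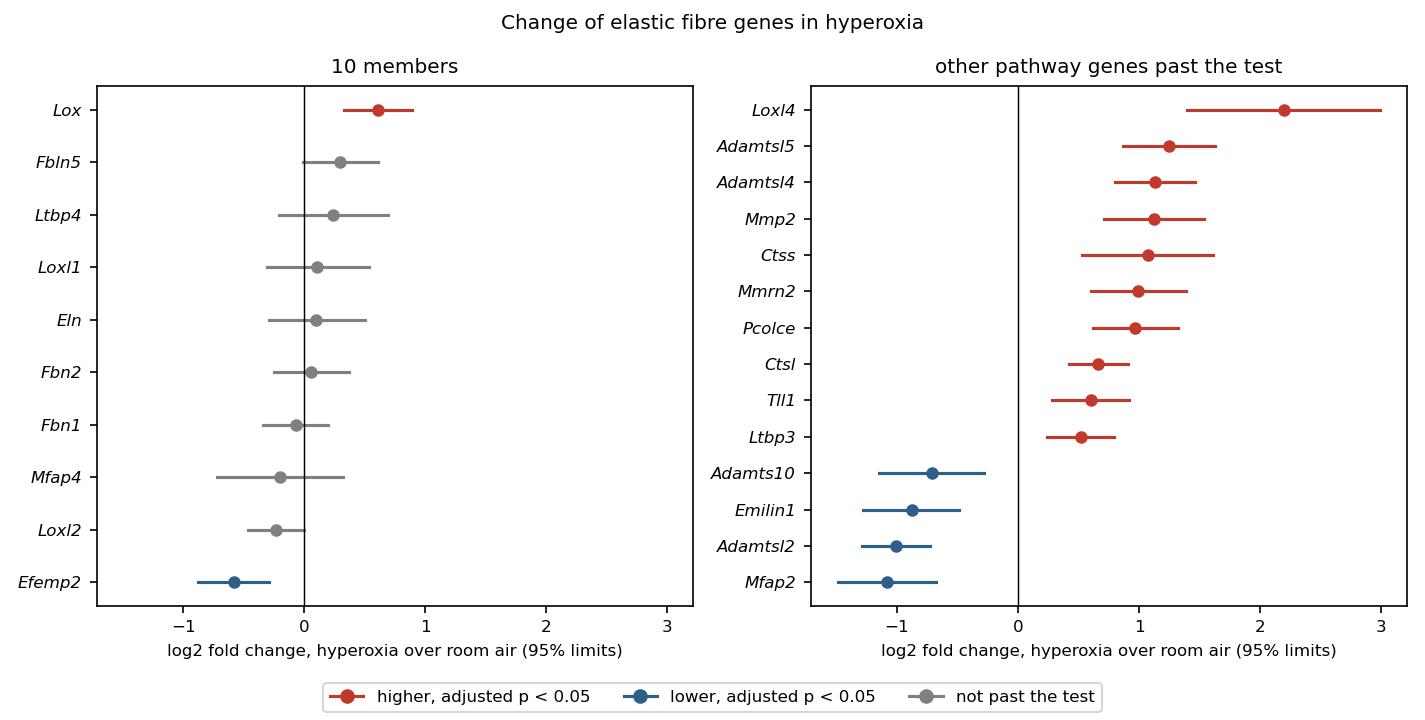
Log2 fold change of hyperoxia over room air with 95% limits for the 10 genes (left) and for the 14 other elastic fibre pathway genes that passed the test (right), with red for higher, blue for lower and grey for not past the test. On the left Lox stands at 0.61 and Efemp2 at -0.58; on the right Loxl4 stands highest at 2.20 and Mfap2 lowest at -1.08.

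Lox and Efemp2 moved in opposite directions and were set against each other, and against Eln and Fbln5, within each library. These ratios were chosen after the values were seen and so are given with no test. There were 1.98, 2.45 and 2.40 Lox counts per Efemp2 count in hyperoxia 1 to 3, against 0.845, 1.13 and 1.06 in room air 1 to 3. The mean ratio was 2.28 ± 0.262 in hyperoxia and 1.01 ± 0.150 in room air (SD, n = 3 each). Relative to Eln, Efemp2 had 4.70, 5.58 and 4.56 counts per 1000 Eln counts in hyperoxia 1 to 3, against 7.92, 7.16 and 8.93 in room air 1 to 3. The adaptor was thus scarcer beside elastin in every hyperoxia library. For Lox the same ratio was 9.28, 13.7 and 10.9 in hyperoxia 1 to 3, against 6.69, 8.13 and 9.44 in room air 1 to 3, and here the groups overlapped between hyperoxia 1 and room air 3. Between the 2 fibulins, of which Fbln5 did not pass the test, there were 29.0, 26.2 and 32.5 Fbln5 counts per Efemp2 count in hyperoxia 1 to 3, against 15.6, 16.8 and 14.9 in room air 1 to 3. The ratios use raw counts within a library and do not depend on how libraries were scaled to each other.

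**Figure D3:**
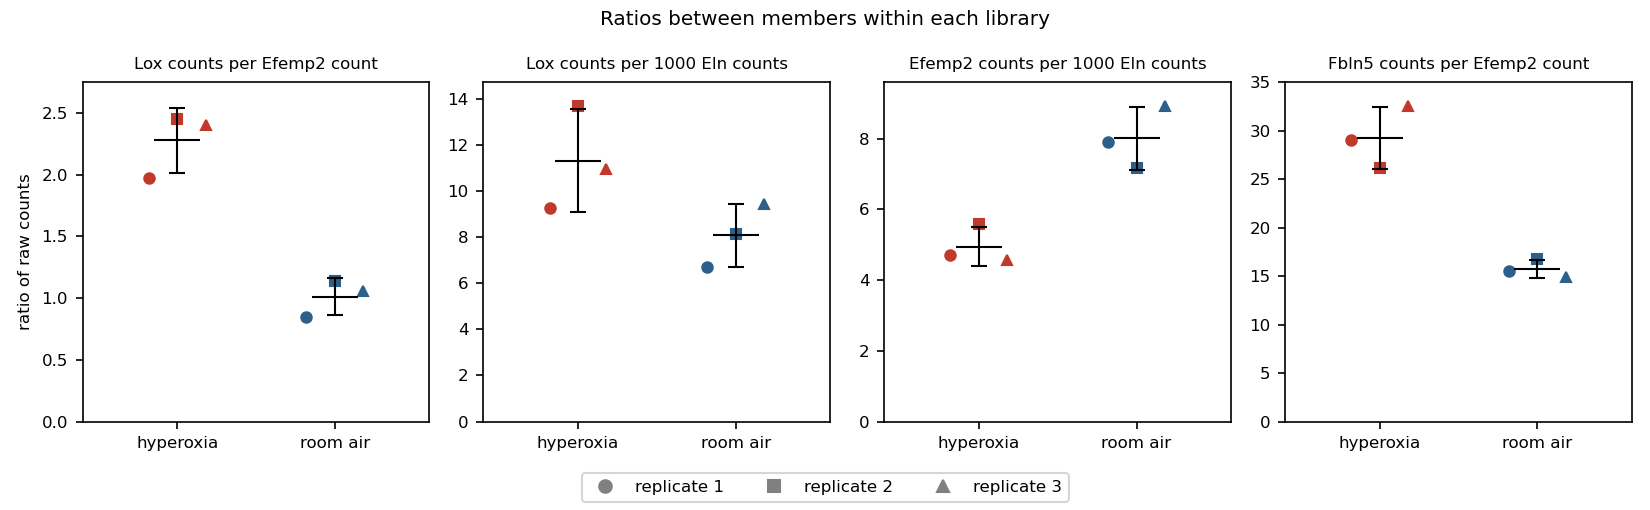
Ratios of raw counts between genes in each library, hyperoxia (left, red) and room air (right, blue), on axes from 0, with points shaped by replicate number and black bars for means with SD. Lox per Efemp2 is 1.98 to 2.45 in hyperoxia and 0.845 to 1.13 in room air, while Lox per 1000 Eln overlaps between the groups.

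Divided by exon length, so that genes can be compared with each other, the levels spanned from elastin to fibrillin-2. The length was that of the merged exons of all annotated transcripts of a gene. It can exceed the length of the transcript present, so the order of genes with close levels within a group is uncertain. Eln had 1181 ± 69.3 CPM per kb in hyperoxia and 1099 ± 174 CPM per kb in room air (SD, n = 3 each). Ltbp4 followed with 321 ± 41.9 CPM per kb in hyperoxia and 272 ± 72.1 CPM per kb in room air. Fbln5 had 199 ± 3.32 CPM per kb in hyperoxia and 161 ± 21.0 CPM per kb in room air. These genes, with Mfap4 after them, kept ranks 1 to 4 in all 6 libraries, and Fbn2 kept rank 10. The middle of the order differed. Lox had rank 5 in all 3 hyperoxia libraries, at 22.5 ± 3.98 CPM per kb, and ranked 8, 8 and 7 in room air 1 to 3, at 14.8 ± 0.222 CPM per kb. Efemp2 ranked 8, 8 and 9 in hyperoxia 1 to 3, at 12.5 ± 1.51 CPM per kb, against 5, 6 and 5 in room air 1 to 3, at 18.7 ± 2.67 CPM per kb. In hyperoxia the neighbours Fbn1 and Loxl1, Loxl1 and Loxl2, and Loxl2 and Efemp2 overlapped in range. In room air the overlapping neighbours were Efemp2 and Fbn1, Fbn1 and Loxl2, Loxl2 and Lox, and Lox and Loxl1.

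**Figure D4:**
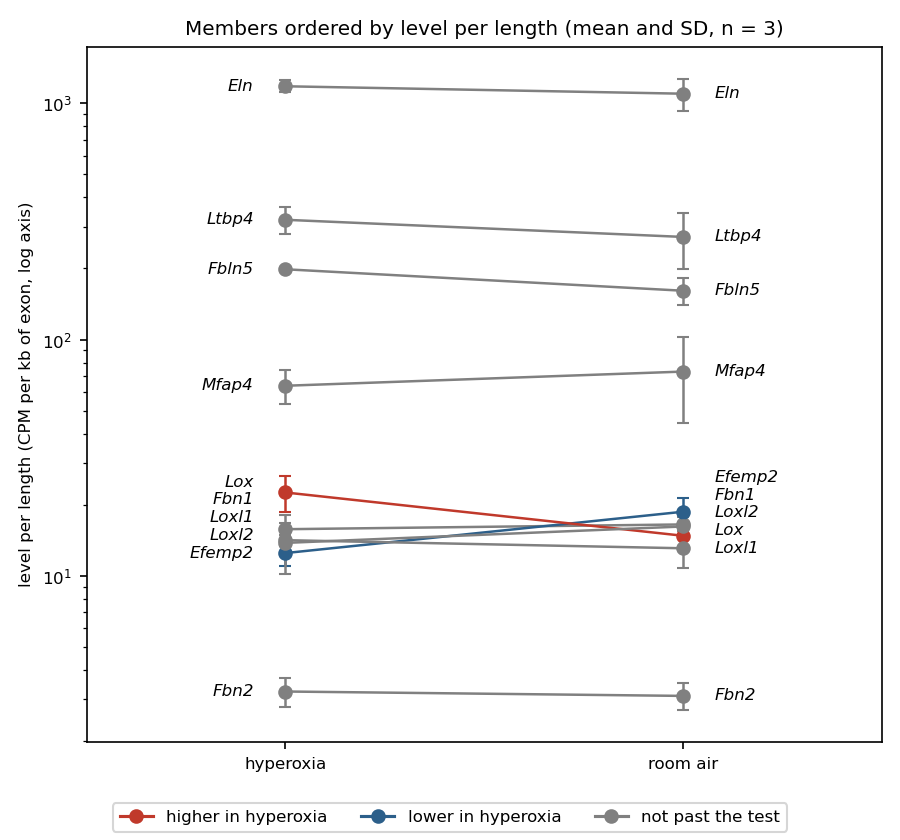
Mean level per exon length (CPM per kb, log axis) with SD of the 10 genes in hyperoxia (left) and room air (right), with lines joining the means of a gene, red for Lox (higher), blue for Efemp2 (lower) and grey for genes not past the test. The lines of Lox and Efemp2 cross, while Eln, Ltbp4, Fbln5 and Mfap4 keep the top of the order in both groups.

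A wider set of 45 genes of the elastic fibre pathway was listed by role, of which 41 were tested. In hyperoxia 10 of the 41 rose, 4 fell and 27 did not pass the test, so 34.1% were called beside 11.2% of all genes tested. Over all genes tested 6.77% were called higher and 4.41% lower, the shares to set beside each count by list below. The median log2 fold change of the 41 was 0.32, beside -0.01 over all genes. In 19 of the 41 (46.3%) the groups did not overlap, beside 30.9% of all genes tested. The list was chosen with earlier results of these data known, so these shares are a description of it and no test was made.

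The 17 microfibril and fibulin relatives split evenly, with 3 higher, 3 lower and 11 not past the test. Mfap2 encodes MAGP-1, a small protein bound along fibrillin microfibrils. It had 161, 96.7 and 135 CPM in hyperoxia 1 to 3, against 306, 296 and 231 CPM in room air 1 to 3. The groups lay far apart, and the gene fell 2.12-fold (log2 fold change -1.08, SE 0.18, adjusted p = 0.00394). Adamtsl2, which binds fibrillin-1 and latent TGF-beta binding protein, also fell, with 16.6 ± 1.67 CPM in hyperoxia and 33.4 ± 0.928 CPM in room air (log2 fold change -1.01, SE 0.13, adjusted p = 0.000874). Its relatives moved the other way. Adamtsl4, known to promote fibrillin-1 deposition, rose to 31.3 ± 4.60 CPM in hyperoxia, against 14.3 ± 1.45 CPM in room air (log2 fold change 1.13, SE 0.15, adjusted p = 0.00121). Adamtsl5 rose to 17.3 ± 0.856 CPM in hyperoxia, against 7.29 ± 1.16 CPM in room air (log2 fold change 1.25, SE 0.17, adjusted p = 0.00153). The count is completed by Ltbp3 and Adamts10, named after their values were seen. Ltbp3, a carrier of latent TGF-beta, had a log2 fold change of 0.52 (SE 0.12, adjusted p = 0.0229). Adamts10, a fibrillin-binding metalloprotease, had one of -0.71 (SE 0.20, adjusted p = 0.0432), and in room air 1, at 111 CPM, it stood near the 102 to 106 CPM of the hyperoxia libraries. The Ltbp3 call was lost without hyperoxia 2 (adjusted p = 0.0794), hyperoxia 3 (0.0756), room air 1 (0.0775) or room air 2 (0.0625), and with the replicate number as a block (0.0615), within a range of 0.000296 to 0.0794 over the 15 alternatives. The Adamts10 call was lost without hyperoxia 1 (adjusted p = 0.100), hyperoxia 2 (0.104), hyperoxia 3 (0.114), room air 2 (0.163) or room air 3 (0.0919). It was also lost with the replicate number as a block (0.0634), by limma-voom (0.0579) and with a term for Y-linked reads (0.158), within a range of 3.38e-06 to 0.163. The most abundant relative, Fbln2, which encodes fibulin-2 of vessel walls, had 1441 ± 228 CPM in hyperoxia and 1121 ± 315 CPM in room air, and did not pass the test (log2 fold change 0.36, SE 0.21, adjusted p = 0.321). Bgn, the proteoglycan biglycan, had a log2 fold change of 0.05 (SE 0.13, adjusted p = 0.862).

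Of the 4 EMILIN and multimerin genes tested, 1 rose and 1 fell. Emilin1 encodes a glycoprotein at the interface of elastin and microfibrils. It had 175, 119 and 159 CPM in hyperoxia 1 to 3, against 338, 273 and 226 CPM in room air 1 to 3. No hyperoxia library reached the lowest room air library, and the gene fell 1.85-fold (log2 fold change -0.88, SE 0.18, adjusted p = 0.00960). Mmrn2 encodes multimerin 2, an endothelial matrix protein. It had 579, 553 and 621 CPM in hyperoxia 1 to 3, against 366, 301 and 213 CPM in room air 1 to 3. It rose 1.99-fold (log2 fold change 0.99, SE 0.18, adjusted p = 0.00562).

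Of the 9 other cross-linking and lysyl oxidase maturation genes tested, 3 rose and 0 fell. Loxl4, a further lysyl oxidase relative, had the largest fold change of the 41 but a low level, with 5.40, 9.42 and 7.44 CPM in hyperoxia 1 to 3, against 2.47, 1.02 and 1.35 CPM in room air 1 to 3. It rose 4.59-fold (log2 fold change 2.20, SE 0.36, adjusted p = 0.00342). Pcolce encodes an enhancer of the procollagen C-proteinases, which also release active lysyl oxidase from its propeptide. It had 53.6, 77.2 and 59.6 CPM in hyperoxia 1 to 3, against 33.3, 27.1 and 36.9 CPM in room air 1 to 3 (log2 fold change 0.97, SE 0.16, adjusted p = 0.00356). Tll1, one of those proteinases, rose to 52.6 ± 7.78 CPM in hyperoxia, against 34.8 ± 4.85 CPM in room air (log2 fold change 0.60, SE 0.15, adjusted p = 0.0247). The Tll1 call was lost with a term for Y-linked reads (adjusted p = 0.228) and without hyperoxia 1 (0.0830), hyperoxia 3 (0.110), room air 2 (0.0741) or room air 3 (0.0625), within a range of 0.000298 to 0.228 over the 15 alternatives. Fn1, which encodes fibronectin, had a log2 fold change of 0.30 (SE 0.13, adjusted p = 0.192). Tgm2, the cross-linker transglutaminase 2, had one of 0.07 (SE 0.16, adjusted p = 0.841), and 21.8% of its exonic bases overlap other genes.

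Of 8 proteases able to cut elastin or its partners, 3 rose and 0 fell. Mmp2, gelatinase A, had 400.0, 352 and 339 CPM in hyperoxia 1 to 3, against 197, 189 and 115 CPM in room air 1 to 3. Its log2 fold change was 1.12 (SE 0.19, adjusted p = 0.00386). Mmp14, the membrane protease that activates it, was among the most abundant of the list and had a log2 fold change of 0.04 (SE 0.15, adjusted p = 0.916). Ctsl, cathepsin L, rose to 224 ± 22.8 CPM in hyperoxia, against 142 ± 1.11 CPM in room air (log2 fold change 0.66, SE 0.11, adjusted p = 0.00394), and is uncertain because 26.8% of its exonic bases overlap other genes. Ctss, cathepsin S, is best known from macrophages, whose markers are given further on. It rose to 134 ± 31.3 CPM in hyperoxia, against 64.0 ± 24.2 CPM in room air (log2 fold change 1.07, SE 0.24, adjusted p = 0.0186). The Ctss call was lost without hyperoxia 1 (adjusted p = 0.0582), hyperoxia 2 (0.113), room air 1 (0.0793) or room air 2 (0.0723), within a range of 1.28e-08 to 0.113 over the 15 alternatives. Of the elastin receptor complex genes Glb1, Neu1 and Ctsa, edgeR, DESeq2 and limma-voom each called 0 of 3, and 1 had an unadjusted p below 0.05 by edgeR. The 2 more abundant, Ctsa and Glb1, had log2 fold changes of -0.02 and 0.12.

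Marker levels of other cell types were set beside these results. The 13 fibroblast markers summed to 813, 1146 and 750.0 CPM in hyperoxia 1 to 3, against 861, 703 and 939 CPM in room air 1 to 3. By edgeR 0 of 13 were called and 1 had an unadjusted p below 0.05, while DESeq2 called 1 and limma-voom 0. The 12 smooth muscle and myofibroblast markers summed to 385, 714 and 468 CPM in hyperoxia 1 to 3, against 390, 381 and 524 CPM in room air 1 to 3, and 0 of 12 were called by any of the 3 tools or had an unadjusted p below 0.05 by edgeR. Both sums were highest in hyperoxia 2 of all libraries, the library with the highest Lox and Loxl1 levels. This was not particular to these 2 lists. The alveolar type 1 (5709 CPM), pericyte (311 CPM) and mesothelial (176 CPM) sums given further on were also highest in hyperoxia 2, and the endothelial sum (11172 CPM) was lowest there. With a term for Y-linked reads, where the comparison rests on hyperoxia 2, Acta2 (log2 fold change 0.96, adjusted p = 0.0348) and Col1a1 (0.67, adjusted p = 0.0478) were called higher, against 0.38 (adjusted p = 0.457) and 0.23 (adjusted p = 0.547) without the term. Neither was called under the other 14 alternatives, and without hyperoxia 2 their log2 fold changes were -0.03 and -0.05. The log2 fold change of Lox was 0.87 with that term and 0.46 without hyperoxia 2. None of the fibroblast, smooth muscle and myofibroblast markers was at 0 in any library. Tagln, one of the 12 smooth muscle and myofibroblast markers, had only 7 to 31 counts per library. Of its exonic bases 67.9% overlap genes on the opposite strand, so its level and its lack of a call are uncertain. The part of these cells in the Lox result was not tested.

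Alveolar type 1 markers rose as a whole list, 8 of 8, and summed to 4354, 5709 and 4391 CPM in hyperoxia 1 to 3, against 1773, 2071 and 2439 CPM in room air 1 to 3. The 8 arterial endothelial markers, of interest because arterial endothelium lies on an elastic layer, summed to 1595, 1335 and 1658 CPM in hyperoxia 1 to 3, against 2692, 2940 and 1875 CPM in room air 1 to 3. By edgeR 3 of the 8 were lower and 0 higher, beside 4.41% lower and 6.77% higher of all genes tested, while DESeq2 and limma-voom each called 4. The 5 erythroid markers, genes of red cells and their precursors, summed to 27.4, 15.4 and 11 CPM in hyperoxia 1 to 3, against 51.6, 36.2 and 32.0 CPM in room air 1 to 3. By edgeR 2 of the 5 were lower and 0 higher, while DESeq2 and limma-voom each called 4. The arterial and erythroid sums were thus lower in hyperoxia, as were Efemp2, Mfap2 and Emilin1. The alveolar type 1 sum was higher, as were Lox, Loxl4 and Pcolce. Any lower list shares its direction with any lower gene, so this likeness ties no list to a gene, and the part of these cells was not tested.

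The pericyte and mesothelial sums were also higher in hyperoxia, but each rested on 1 gene. The pericyte sum was 233, 311 and 256 CPM in hyperoxia 1 to 3, against 188, 160 and 179 CPM in room air 1 to 3, with 1 of 8 markers higher, Rgs5. Without Rgs5 the sum was 94.1, 145 and 114 CPM in hyperoxia 1 to 3, against 96.3, 111 and 114 CPM in room air 1 to 3, and the groups overlapped. The mesothelial sum was 126, 176 and 141 CPM in hyperoxia 1 to 3, against 70.6, 51.5 and 58.9 CPM in room air 1 to 3, with 1 of 5 markers higher, Msln. Without Msln it was 10.4, 10.9 and 10.9 CPM in hyperoxia 1 to 3, against 32.0, 11.6 and 15.7 CPM in room air 1 to 3, so that all hyperoxia values lay below. The median log2 fold change of the 5 mesothelial markers was -0.26.

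The 8 leukocyte markers summed to 1012, 1002 and 789 CPM in hyperoxia 1 to 3, against 1053, 947 and 1630.1 CPM in room air 1 to 3, a sum made up mostly of Lyz2. Without Lyz2 it was 207, 245 and 157 CPM in hyperoxia 1 to 3, against 151, 129 and 238 CPM in room air 1 to 3. The 2 markers called, both higher, were the macrophage genes Marco and Cd68, named after their values were seen. Marco had 20.3, 57.3 and 26.6 CPM in hyperoxia 1 to 3, against 5.15, 6.30 and 11 CPM in room air 1 to 3 (log2 fold change 2.22, SE 0.39, adjusted p = 0.00632). Cd68 had 47.8, 53.7 and 39.5 CPM in hyperoxia 1 to 3, against 18, 23.7 and 35.4 CPM in room air 1 to 3 (log2 fold change 0.87, SE 0.22, adjusted p = 0.0273). The Marco call was lost with no filter on low counts (adjusted p = 0.132), and the Cd68 call without hyperoxia 1 (0.0621), hyperoxia 2 (0.0879), room air 1 (0.0738) or room air 2 (0.110). Over the 15 alternatives the adjusted p ran from 0.000525 to 0.132 for Marco and from 4.76e-08 to 0.110 for Cd68. Both moved in the direction of Ctss and, like Ctss, were highest in hyperoxia 2. The leukocyte list as a whole did not share this direction. Of its 8 markers 4 leaned higher and 4 lower, and the median change was 0.04 on the log2 scale. Lyz2 leaned lower, at -0.50 on that scale, with all hyperoxia values below all room air values, but edgeR did not call it (adjusted p = 0.141). Ptprc also leaned lower, at -0.20, and its groups overlapped. Of the 11 endothelial markers edgeR called 1 lower and 0 higher, with 4 at an unadjusted p below 0.05, while DESeq2 called 2 and limma-voom 1. The log2 fold change was negative for 9 of the 11, with a median of -0.30. Of 7 alveolar type 2 markers edgeR called 0, with 2 at an unadjusted p below 0.05, DESeq2 called 1 and limma-voom 0. Of 4 platelet markers edgeR called 0, with 1 at an unadjusted p below 0.05, DESeq2 called 1 and limma-voom 0. Gp1bb, a platelet marker that was not tested, had 0 counts in all 6 libraries, and no other marker was at 0. Of the exonic bases of Gp1bb 92.9% overlap other genes on the same strand, so its 0 counts cannot be read as absence of the transcript. Of those of Itgam, a leukocyte marker, 68.7% overlap another gene on the same strand, so its level is uncertain. The part of these cells in the results was not tested.

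**Figure D5:**
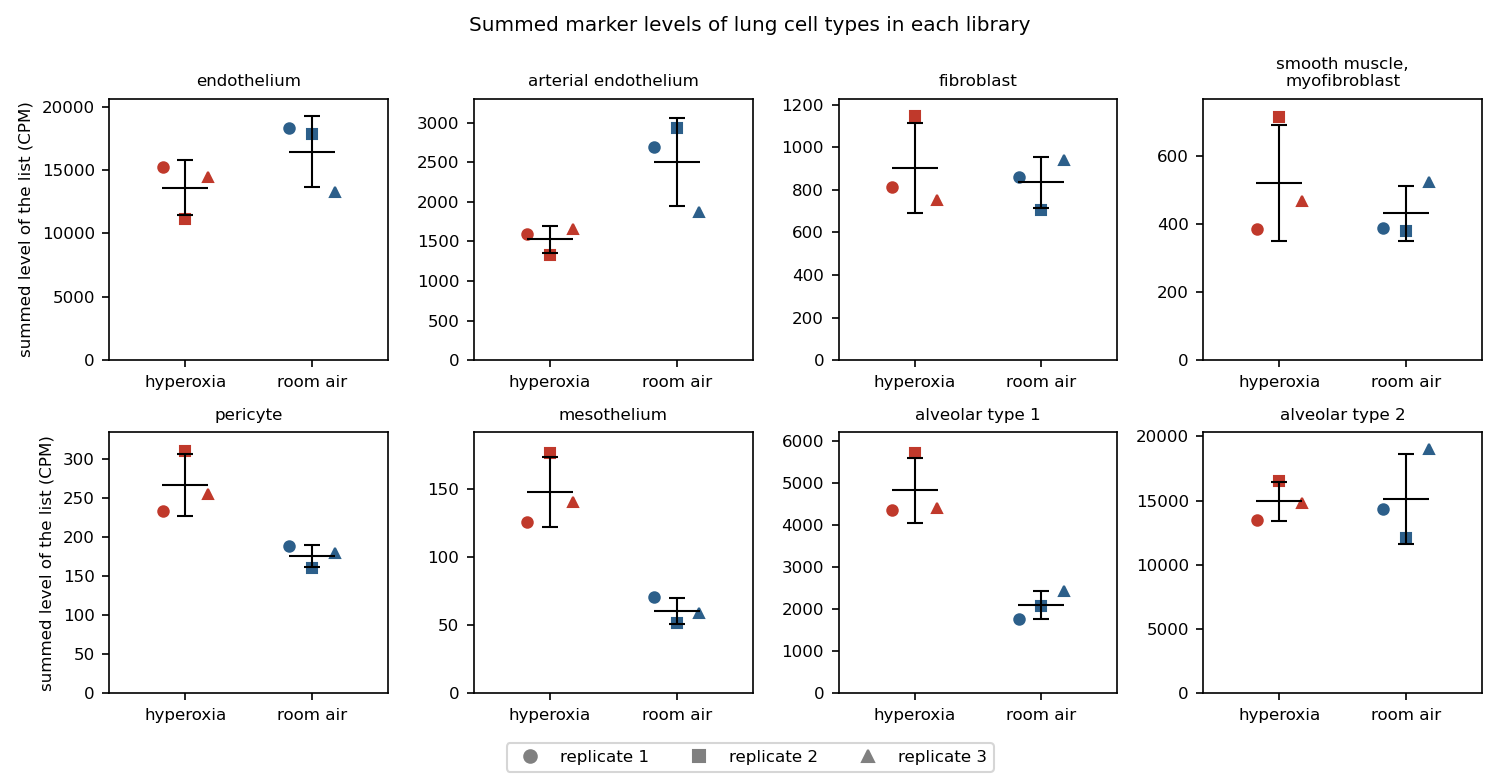
Summed level (CPM, each panel on its own axis from 0) of the marker genes of 8 lung cell types in the hyperoxia (left, red) and room air (right, blue) libraries, with points shaped by replicate number and black bars for means with SD. The alveolar type 1 sum is higher in all hyperoxia libraries and the arterial sum is lower; the mesothelial and pericyte sums are higher through Msln and Rgs5 alone, while the fibroblast and smooth muscle sums overlap.

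The genes nearest to Lox and Efemp2 in pattern were sought among 11224 genes of at least 5 CPM, by the root mean square difference of log2 CPM, centred on the mean of each gene, over the 6 libraries. For Lox the nearest were Mapre3 (0.0429), Lrpap1 (0.0527) and Crebl2 (0.0551). For Efemp2 they were H2-M3 (0.0684), Taf12 (0.0913) and Ephb6 (0.0973). None of these genes was on the elastic fibre lists.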

How the data were processed

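Bead-selected CD31+ lung cells of 6 libraries were compared, 3 of hyperoxia and 3 of room air, grouped by their titles. The deposited values are raw counts per Ensembl gene ID. The submitters' processing notes name GRCm39 as the build, and DESeq2, featureCounts, Subread 2.0.6 and HISAT2 2.2.1 as tools, without their order. Not given in the sources used here are the annotation release, the strand setting and how multimapping reads were counted.

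Genes were kept by filterByExpr (minimum count 10, minimum total 15), scaled by TMM and compared with edgeR 4.0.16 in R 4.3.3 (robust quasi-likelihood test, no covariate, Benjamini-Hochberg over 17072 genes, called at an adjusted p below 0.05). Adjusted p-values are from this test unless another tool is named. Standard errors, taken from the F statistic, and 95% limits are approximate. Levels are CPM after TMM. The common biological coefficient of variation was 0.229. An exact permutation test of 3 against 3 libraries cannot go below a p of 0.1 and was not used.

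Exon length and overlap came from GENCODE M21, which is on GRCm38, so no gene coordinates are given; promoter windows came from RefSeq. The members and lists were chosen with earlier results of these data known. All 10 members were named. From each pathway list the rule took up to 4 called genes by size of change and the 2 most abundant, and from each marker list the 2 most abundant. It also took the 3 genes nearest in pattern to each called member. Neu1, Ltbp3, Adamts10, Marco, Cd68, Tagln, Itgam and Gp1bb were named after their values were seen.

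Replicates were compared for duplicates, and the closest pair, hyperoxia 1 and hyperoxia 3, had a chi-square of 14.1 per degree of freedom. No library was thus a plain repeat of another, and each was counted as its own sample. The check cannot tell separate animals from separate preparations of 1 animal or pool. Room air 3 stood farthest from its group, at 102 against room air 1 and 108 against room air 2, which were at 38.0 from each other. Hyperoxia 2 was at 52.0 from hyperoxia 1 and 43.5 from hyperoxia 3. It also had the fewest genes with any count, 19471, against 21784 to 23989 in the other libraries. On counts simulated for this comparison over 17072 genes, the test recovered 70% of 100 genes changed by 1 and 97% of 100 genes changed by 2 on the log2 scale, and 11 of 178 calls were false. Alternatives were other scalings (DESeq2 size factors, upper quartile, library size), other filters, leaving out each library, replicate number as a block, DESeq2 1.42.0, limma-voom (limma 3.58.1) and a term for the presence of Y-linked reads.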

Additional observations from a re-analysis of the deposited data

How the results depend on the processing

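Lox was called higher under all 15 alternatives. The number of the 10 genes called lower was 0 with a term for Y-linked reads and 0 to 1 with 1 library left out. The 10 higher and 4 lower calls among the 41 other pathway genes were 8 to 11 and 3 to 4 with 1 library left out. Over all genes, 1156 higher and 753 lower calls became 681 to 1095 higher and 376 to 749 lower with 1 library left out. Higher calls moved by over 1.5 times without hyperoxia 3 (713), room air 1 (754) or room air 2 (681), and lower calls without hyperoxia 1 (487), hyperoxia 2 (496), hyperoxia 3 (430) or room air 2 (376). Lower calls were 1243 with no filter, 1242 by DESeq2 and 1223 with a term for Y-linked reads. The cause was not tested. Scalings moved the median of all genes by at most 0.02 on the log2 scale. Higher calls were 60.6% of calls, and 53.4 to 64.9% over the alternatives.

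Among the 55 named genes followed through the alternatives, 7 called genes lost the call under some alternative, namely Efemp2, Tll1, Ctss, Ltbp3, Adamts10, Marco and Cd68. Ltbp3 had an adjusted p of 0.0615 with the replicate block and at most 0.0794 with 1 library left out, and Adamts10 one of 0.0634 with the replicate block, 0.0579 by limma-voom, 0.158 with the Y-linked term and at most 0.163 with 1 library left out. The log2 fold change changed sign under some alternative for 16 genes, none of them called in the comparison as reported; 2 of them, Acta2 and Col1a1, were called with a term for Y-linked reads (0.96 and 0.67, adjusted p = 0.0348 and 0.0478). With a term for Y-linked reads it was 0.01 for Fbn1, -0.16 for Tgm2, -0.10 for Mmp14, 0.10 for Sftpc, 0.01 for Ptprc and -0.39 for Itga2b. With 1 library left out it ran from -0.00 to 0.22 for Eln, -0.16 to 0.02 for Fbn1, -0.06 to 0.15 for Fbn2, -0.13 to 0.27 for Loxl1 and -0.42 to 0.16 for Mfap4. It ran from -0.03 to 0.13 for Bgn, -0.08 to 0.22 for Tgm2, -0.11 to 0.13 for Mmp14, -0.08 to 0.03 for Ctsa and -0.09 to 0.25 for Col3a1. It ran from -0.05 to 0.37 for Col1a1, -0.03 to 0.65 for Acta2, -0.12 to 0.24 for Pdgfrb, -0.24 to 0.15 for Sftpc and -0.42 to 0.22 for Ptprc.

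Replicate numbers gave no sign of pairing. Deviations of same-numbered libraries correlated at 0.11, -0.04 and -0.09 over 17072 genes, and those of differently numbered libraries at -0.12 to 0.15. With 3 libraries a group these correlations cannot exclude a shared origin or batch. With the replicate block there were 881 higher and 514 lower calls, 1 higher and 1 lower among the 10 genes, and 9 higher and 3 lower among the 41. Total counts differed little between libraries, and with 3 libraries a group the spread between them limits what could be called.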
